A study of Danio rerio with 6 samples.

Results

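The Myc family genes are described here together with Max and Mxi1, the proteins that pair with Myc or oppose it. The 6 genes were chosen by gene symbol, and all 6 were on the array. They were read by 8 probe sets of the 15502 tested, which name 8793 genes in all. myca, mycb, mych and mxi1 had 1 probe set each, and mycn and max had 2 each, told apart here as the brighter and the dimmer by their mean over the 6 arrays. The Entrez gene numbers paired with the probe sets are 30686 for myca, 393141 for mycb, 252851 for mycn, 560341 for mych, 30467 for max and 30485 for mxi1. The genes were listed with earlier results of the same arrays in view, in which myca and mycb had large differences between the tumour types. The differences of the 6 genes between the tumour types are therefore given as a description, with an error and no p-value. This error, marked SE, is the moderated SE of limma, which draws each probe set's variance toward that of all probe sets. It differs from an SE worked out from the SDs given. How many of the probe sets of the 6 genes passed a threshold is printed beside the share or the number of all probe sets. Nothing is read from that count.

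Each of 6 zebrafish tumours was hybridized to its own Affymetrix array. The SRBCT group (3 arrays) holds small round blue cell tumours of Tg(HSP:EWS-FLI1); p53M214K/M214K fish, in which the heat shock promoter HSP70 drove the human EWS-FLI1 fusion oncoprotein from a transposon injected into embryos, so that insertions are somatic and can differ between cells and fish. EWS-FLI1 is the fusion that drives most Ewing sarcomas in humans. The MPNST group (3 arrays) holds malignant peripheral nerve sheath tumours of p53M214K/M214K fish, with no transgene in the genotype label. Fish of both groups are thus homozygous for the same p53 mutation, and their ages are not given in the sources used here. Values are on the log2 scale of RMA, a method that normalizes the arrays together and gives 1 value per probe set and array. A difference of 1 is a change by a factor of 2, and differences are SRBCT minus MPNST. The number of arrays limits the precision of every value, and in whole tumours fewer cells of a type and less RNA per cell cannot be told apart.

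Myc proteins are transcription factors of the basic helix-loop-helix leucine zipper class. They bind DNA as a pair with Max and raise the transcription of genes for ribosome production, nucleotide synthesis and cell cycle entry. Max also pairs with Mxi1 and the other Mxd proteins, which repress the same kind of target. Zebrafish have a pair of genes in place of the single mammalian MYC, called myca and mycb, besides mycn, the ortholog of the neuroblastoma gene MYCN, and mych, a further fish paralog. In human Ewing sarcoma MYC is known as a gene that EWS-FLI1 raises, whereas MYCN is best known from tumours of neural origin.

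SRBCT 3 stood apart from the other SRBCT arrays. Its correlations with SRBCT 1 and SRBCT 2 across probe sets were 0.892 and 0.864, below those with MPNST 2 and MPNST 3, which were 0.91 and 0.916. With MPNST 1 it was 0.875, below that with SRBCT 1. The neural genes nkx2.2a and elavl3 were at 10.76 and 8.50 on SRBCT 1 and at 9.58 and 8.80 on SRBCT 2, but at 4.18 and 4.13 on SRBCT 3. On the MPNST arrays nkx2.2a was between 3.48 and 3.86 and elavl3 between 3.83 and 4.1. Not all neural markers fell so far. On SRBCT 3 dla was at 6.74 and fabp7a at 6.67, above every MPNST array (up to 5.14 and 5.88). The median of all 21 neural markers, given below, lay within the MPNST range on SRBCT 3. sox10, listed here with the Schwann cell and neural crest markers, did not separate the tumour types. It read 10.34 to 11.01 in SRBCT and 10.45 to 10.75 in MPNST. The differences of the 6 genes, and those of the other genes named with one, are therefore given with and without SRBCT 3. SRBCT 3 was set apart by its values on these same arrays. Without it 1140 probe sets passed an adjusted p of 0.05, in place of 140. Calls made without SRBCT 3 are therefore a description and no support for a difference. Over all probe sets the median difference between the tumour types was 0.09.

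myca, an ortholog of MYC, lay above every MPNST array on all 3 SRBCT arrays. Its probe set read 8.68, 7.17 and 9.0 on SRBCT 1, 2 and 3, and 6.05, 5.62 and 6.97 on MPNST 1, 2 and 3. SRBCT 1 and SRBCT 3 were high, while SRBCT 2 lay only 0.2 above MPNST 3. The group means were 8.28 ± 0.98 (SD, n = 3) in SRBCT and 6.21 ± 0.69 in MPNST, a difference of 2.07 (SE 0.58). On MPNST 2 myca lay within the span of the Bacillus subtilis control probe sets described below, 2.64 to 5.91, so no fold is given. A single control probe set gave that upper end, and the next highest read 4.3. Without SRBCT 3, the array with the highest myca value, the difference was 1.71 (SE 0.59).

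mycb, the second MYC ortholog, was also higher on all 3 SRBCT arrays, but the arrays that led were others. Its values were 9.58 on SRBCT 1, 10 on SRBCT 2 and 7.59 on SRBCT 3, against 6.64, 5.94 and 7.38 on MPNST 1, 2 and 3. Here SRBCT 3 was the lowest of its group and only 0.21 above MPNST 3. The means were 9.06 ± 1.29 (SD, n = 3) in SRBCT and 6.65 ± 0.72 in MPNST, and the difference was 2.40 (SE 0.70). Without SRBCT 3 it was 3.14 (SE 0.45). On MPNST 2 mycb lay barely above the upper end of the control span, 5.91, so no fold is given here either. Relative to their own MPNST means, myca and mycb were thus 2.47 and 2.93 higher on SRBCT 1, 0.96 and 3.35 higher on SRBCT 2, and 2.79 and 0.94 higher on SRBCT 3. The difference between both genes' relative values had an SD of 2.12 in SRBCT and of 0.14 in MPNST, where they kept step.

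mycn had the largest range of the 6 genes, and it ran the other way. By the brighter probe set it was at 5.12 on SRBCT 1, at 4.06 on SRBCT 2 and at 9.62 on SRBCT 3, while MPNST 1, 2 and 3 had 8.88, 10.98 and 9.67. The dimmer probe set read 4.06, 3.69 and 8.83 in SRBCT and 8.80, 10.05 and 9.12 in MPNST. On both probe sets SRBCT 1 and SRBCT 2 lay far below every other array and SRBCT 3 lay within the MPNST range, so that the groups overlapped through this array alone. On SRBCT 1 and SRBCT 2 the values were below the medians of those arrays, which were 5.56 and 5.49, and RMA draws such dim values together. They also lay within the span of 15 control probe sets for transcripts of Bacillus subtilis, which was 2.94 to 5.95 on SRBCT 1 and 2.69 to 5.62 on SRBCT 2. The medians of these controls were 3.35 on SRBCT 1 and 3.05 on SRBCT 2, and a single probe set gave both upper ends. The sources used here do not state whether those transcripts were added to the RNA. mycn thus lay above the medians of these controls but within their span. It is not shown to lie above background on SRBCT 1 and SRBCT 2, and its differences are not given as folds. Both probe sets kept step, with a Pearson correlation of 0.991 over the 6 arrays, a description for readings of 1 gene on the same arrays.

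The mean difference of mycn was -3.58 (SE 1.46) on the brighter and -3.80 (SE 1.37) on the dimmer probe set. The SD over the 3 SRBCT arrays was 2.95 and 2.87, against 1.06 and 0.65 in MPNST, since SRBCT 3 lay far above the group mean and the other arrays below it. Without SRBCT 3 the differences were -5.25 (SE 0.68) and -5.45 (SE 0.41). The ranges of the 2 probe sets within SRBCT, 5.56 and 5.14, exceeded those of 99.6% and 99.3% of all probe sets, whose median range was 0.72.

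**Figure D1:**
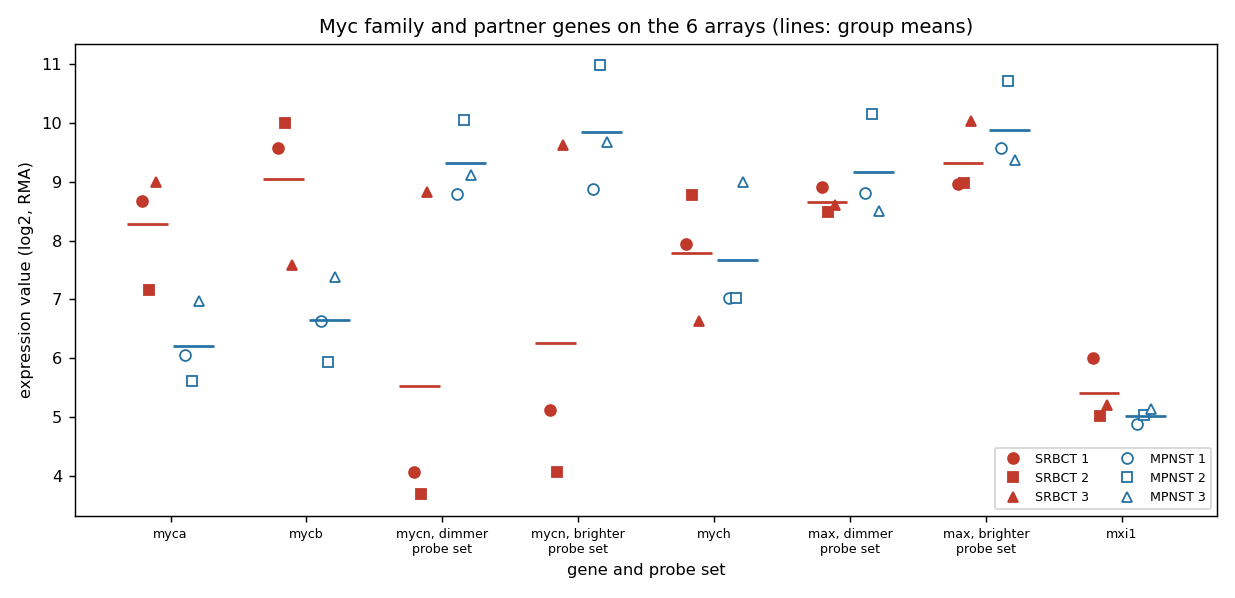
Expression values (log2, RMA; vertical axis) of the 8 probe sets of the 6 genes (horizontal axis) on each array, with SRBCT as filled red and MPNST as open blue symbols and the symbol shape giving the replicate number; short lines are group means of 3 arrays. myca and mycb lie higher on all SRBCT arrays, whereas SRBCT 1 and SRBCT 2 are far below the other arrays for mycn, with 5.12 and 4.06 on the brighter probe set, and SRBCT 3 is at 9.62.

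mych, the further fish paralog, varied as much within each tumour type as between them. It read 7.95, 8.77 and 6.64 on SRBCT 1, 2 and 3, and 7.02, 7.03 and 8.99 on MPNST 1, 2 and 3. The highest value was on MPNST 3 and the lowest on SRBCT 3. Means were 7.79 ± 1.07 (SD, n = 3) and 7.68 ± 1.13, and the difference of 0.11 (SE 0.74) was smaller than the spread in either group. It changed sign in 3 of 14 alternative fits, among them those without SRBCT 2 (-0.39) and without MPNST 1 (-0.22), and was 0.68 without SRBCT 3.

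The paralogs therefore divided the arrays in different ways, as the plot of values relative to the MPNST mean shows. On SRBCT 1 and SRBCT 2 mycb was high and mycn low. On SRBCT 3 myca was 2.79 above its MPNST mean, mycb 0.94 above, and mycn 0.22 below on the brighter and 0.49 below on the dimmer probe set. Over the 6 arrays mycb and mycn had Pearson correlations of -0.95 and -0.96 on the 2 mycn probe sets, and myca and mycn of -0.39 and -0.45. These are descriptions of 6 arrays that fall into a pair (SRBCT 1 and 2) and the rest, and the genes share the same RNA. myca and mycb correlated at 0.60, and mych and mycb at 0.56.

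**Figure D2:**
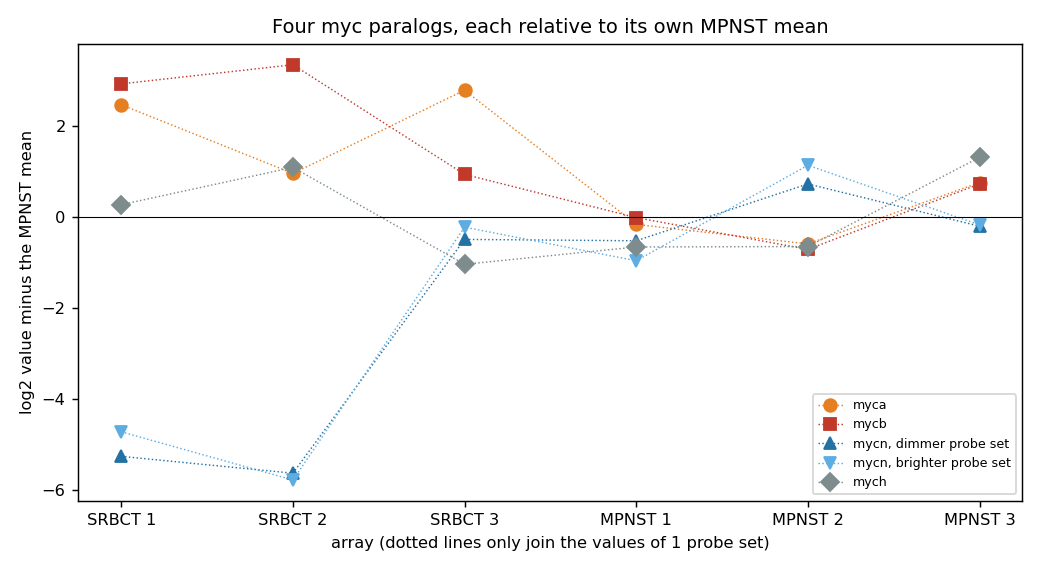
Values of the myc paralogs on each array (horizontal axis) minus the MPNST mean of the same probe set (vertical axis, log2), with symbols for the probe sets and dotted lines joining values of 1 probe set. mycb is high and mycn low on SRBCT 1 and SRBCT 2, while on SRBCT 3 myca is 2.79 above its MPNST mean and mycn 0.22 or 0.49 below.

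max, the common partner, differed less. The dimmer probe set read 8.91, 8.48 and 8.60 in SRBCT and 8.81, 10.16 and 8.51 in MPNST, and the brighter read 8.96, 8.98 and 10.04 in SRBCT and 9.57, 10.72 and 9.37 in MPNST. MPNST 2 was the highest array on both probe sets, and the tumour types overlapped. Differences were -0.50 (SE 0.45) and -0.56 (SE 0.47), within the SD of 0.88 and 0.73 (n = 3) in MPNST. Without SRBCT 3 they were -0.47 and -0.92, and without MPNST 2, the array with the highest values, they were 0.0033 and -0.14. Both probe sets disagreed on SRBCT 3, which was 0.56 below the MPNST mean on the dimmer and 0.15 above it on the brighter, and their correlation over the 6 arrays was 0.76.

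mxi1, the Max-binding repressor, had a mean over the 6 arrays below that of the median probe set. It lay above its array's median on SRBCT 1, where the median was 5.56, and below it on the other 5 arrays. Its values were 6.0, 5.02 and 5.21 in SRBCT and 4.89, 5.04 and 5.13 in MPNST. Except on SRBCT 1, where the upper end was 5.95, they lay within the span of the Bacillus subtilis control probe sets of the same array. A single control probe set lay above mxi1 on each of the other 5 arrays. SRBCT 1 alone stood out, and SRBCT 2 lay inside the MPNST range. The difference was 0.39 (SE 0.29), and 0.10 without SRBCT 1. It was 0.49 without SRBCT 3.

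Of the 8 probe sets 2 had groups that did not overlap, both higher in SRBCT, where 13.2% of all probe sets were of this kind. When limma was fitted to all probe sets and its p-values were adjusted by Benjamini and Hochberg's method, 0 of the 8 had an adjusted p under 0.05, where 0.903% of all probe sets did. At an unadjusted p under 0.05 there were 4 of 8, against 15.2% of all. Other variance models, weights for the arrays and the replicate number as a block also gave 0. Without SRBCT 3, 3 of the 8 passed the adjusted threshold, and 7.35% of all probe sets did. As the genes were listed with this contrast known, nothing is read from these counts.

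**Figure D3:**
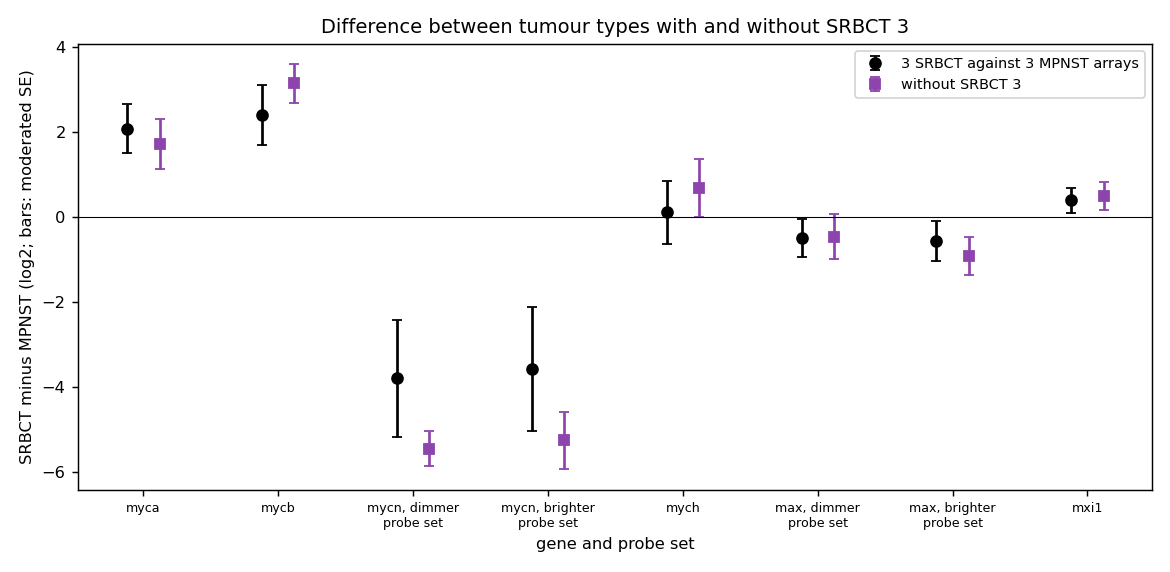
Difference SRBCT minus MPNST (log2, vertical axis) of each probe set, with all 6 arrays (black circles) and without SRBCT 3 (purple squares); bars are the moderated SE of the fit. Leaving out SRBCT 3 takes mycn on its dimmer probe set from -3.80 to -5.45 and mycb from 2.40 to 3.14, and myca from 2.07 to 1.71.

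Other measures of the arrays also differed between them. The bacterial hybridization controls, 9 probe sets for transcripts added in the laboratory, had means of 10.28, 8.34 and 9.61 on SRBCT 1, 2 and 3 and of 8.25, 8.79 and 8.35 on MPNST 1, 2 and 3. They were high on SRBCT 1 and SRBCT 3, as myca was. Within MPNST they were highest on MPNST 2, where myca was lowest. With their level added to the fit, an alternative chosen once the data had been seen, the difference was 1.43 (SE 0.68) for myca, 2.92 for mycb, and -4.56 and -4.75 for the mycn probe sets. This fit took mxi1 to -0.02. As the control level was highest on SRBCT 1 and SRBCT 3, the fit cannot separate it from tumour type. The part of this level in the results was not tested. For GAPDH, whose controls gauge RNA integrity, the signal at the 3' end exceeded that at the 5' end by 0.41 to 0.84 in SRBCT and 1.04 to 1.1 in MPNST, and its part in the results was not tested.

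Markers of tissues that a tumour sample can hold also differed between arrays. On a scale where each gene is set against its own 6-array mean, the median of the 21 neural progenitor and neuron markers was 1.19 and 2.55 on SRBCT 1 and 2 and -0.56 on SRBCT 3, and it was between -1.13 and -0.46 in MPNST. mycb and mych followed the same order of the SRBCT arrays. Within MPNST this median was lowest on MPNST 1 and highest on MPNST 3. There mych read 7.02, 7.03 and 8.99 on MPNST 1, 2 and 3, and mycb 6.64, 5.94 and 7.38. The log2 of the summed signal of these markers was 11.23 to 14.09 in SRBCT and 10.65 to 11.38 in MPNST. The 15 Schwann cell and neural crest markers went both ways, with 9 of 15 above 0 and a median difference of 0.11. On the relative scale their medians were -0.08, -0.80 and 0.58 on SRBCT 1, 2 and 3 and -0.30, -0.20 and 0.49 on MPNST 1, 2 and 3. Of the list, cldnk, of the myelin sheath, was high in SRBCT, with 10.84, 8.84 and 8.67 on SRBCT 1, 2 and 3 and 5.17 to 5.78 in MPNST, and pmp22a differed by 1.33 (0.84 without SRBCT 3). pmp22b was at 4.12, 4.95 and 7.54 on SRBCT 1, 2 and 3 and between 9.37 and 10.02 in MPNST, and snai1a at 3.74, 5.05 and 9.18 against 9.05 to 9.92. The neural crest gene foxd3 was at 6.60, 5.30 and 9.60, against 9.67 to 10.29. snai1a and foxd3 were thus lowest on SRBCT 1 and SRBCT 2, as mycn was. The summed signal of this list was 11.57 to 13.61 in SRBCT and 12.58 to 13.20 in MPNST.

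The 19 intestine and pancreas markers had a relative median of 3.05 on SRBCT 3, where myca was highest, and of -1.09 to 0.11 on the other 5 arrays. Their summed signal was 9.01 to 14.30 in SRBCT and 8.99 to 10.95 in MPNST. Single genes of the list departed from this median. fabp6 was at 11.28, 3.58 and 11.1 on SRBCT 1, 2 and 3 and between 3.27 and 3.41 in MPNST. cdx4 was at 6.08, 3.63 and 5.45, against 3.77 to 4.1. Both were thus high on SRBCT 1 and SRBCT 3, as myca was. Not all genes of the list were, since apoa4b.1 and prss1 were higher on MPNST 1 (5.7 and 8.79) than on SRBCT 1 (4.0 and 7.56). The 14 liver markers had a relative median of 4.27 on MPNST 1 and of -1.32 to -0.55 elsewhere, with summed signals of 8.74 to 10.48 and 9.95 to 14.64. Of 17 oocyte and germ cell markers 8 fell, against 0.785% of all genes, and their summed signal was 8.30 to 9.19 in SRBCT and 12.74 to 14.48 in MPNST. Erythroid markers (12) summed to 10.07 to 11.12 and 11.14 to 12.47, leukocyte markers (14) to 11.12 to 12.48 and 12.61 to 13.55, and skeletal muscle markers (14) to 8.57 to 9.51 and 8.31 to 8.48. RMA values have no zero, so that none of these markers can be given as absent. The part of these tissues in the myc values was not tested. Without both SRBCT 3 and MPNST 1 the differences were 1.63 for myca, 3.13 for mycb, and -5.71 and -5.74 for the mycn probe sets. The arrays kept in this fit still differed in other tissues. Oocyte and germ cell markers summed to 9.19 and 8.30 on SRBCT 1 and 2, and to 13.10 and 12.74 on MPNST 2 and 3.

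Genes with profiles most like those of the members were sought among 3519 genes that varied over the 6 arrays. Likeness is Pearson's r over 6 arrays, given as a description, and high values are easily reached with so few arrays that share the same RNA. The profile of myca was closest to nanos1 (r 0.990), an RNA-binding translational regulator, arpp19a (0.979), an inhibitor of the phosphatase PP2A, slc49a4 (0.965), the cell cycle regulator rgcc (0.956) and msna (0.953), a moesin that links actin to the membrane. rgcc was at 8.28, 6.65 and 7.78 on SRBCT 1, 2 and 3 and between 4.66 and 5.37 in MPNST.

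The profile of mycb was closest to spry4 (r 0.992), a feedback inhibitor of growth factor signalling that the FGF pathway induces. spry4 read 10.17, 10.18 and 8.34 on SRBCT 1, 2 and 3, and 7.23, 6.27 and 7.93 on MPNST 1, 2 and 3. Next came gng12a (0.991), a G protein subunit, fabp7a (0.989), the brain fatty acid binding protein of radial glia, anapc5 (0.987), a subunit of the anaphase promoting complex, and the lysosomal transporter slc17a5 (0.985). fabp7a had the widest range of these, with 11.64, 12.28 and 6.67 in SRBCT and 3.60, 3.68 and 5.88 in MPNST.

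For mycn the closest were tspo (r 0.997), a protein of the outer mitochondrial membrane, vta1 (0.990), the Wnt receptor gene fzd7b (0.989), the calpain gene capn1 (0.985) and the mannose 6-phosphate receptor gene m6pr (0.984). fzd7b read 6.24 and 6.26 on SRBCT 1 and SRBCT 2, 9.46 on SRBCT 3, and 9.27, 10.85 and 9.61 on MPNST 1, 2 and 3. SRBCT 1 and SRBCT 2 were thus low for fzd7b as for mycn, and SRBCT 3 lay with the MPNST arrays.

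mych was most like fam13b (r 0.993), nptx1l (0.972), nufip1 (0.961), higd1a (0.958) and selenot2 (0.957). nptx1l, of the neuronal pentraxin family, was at 5.24, 7.65 and 2.98 in SRBCT and at 3.25, 4.04 and 6.89 in MPNST, high on SRBCT 2 and MPNST 3 like mych. For max, read by its brighter probe set, the genes were rock2b (0.993), tpd52l1 (0.972), anos1a (0.971), the mitochondrial superoxide dismutase gene sod2 (0.968) and ppat (0.967), the first enzyme of purine synthesis. ppat read 7.93, 7.65 and 9.07 in SRBCT and 8.97, 9.88 and 8.42 in MPNST. For mxi1 they were tbx4 (0.995), sox21b (0.990), mtmr2 (0.988), dnm1l (0.987) and desmb (0.982), and in each of these SRBCT 1 was the highest array, with sox21b at 7.34 there and at 4.13 or less elsewhere.

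**Figure D4:**
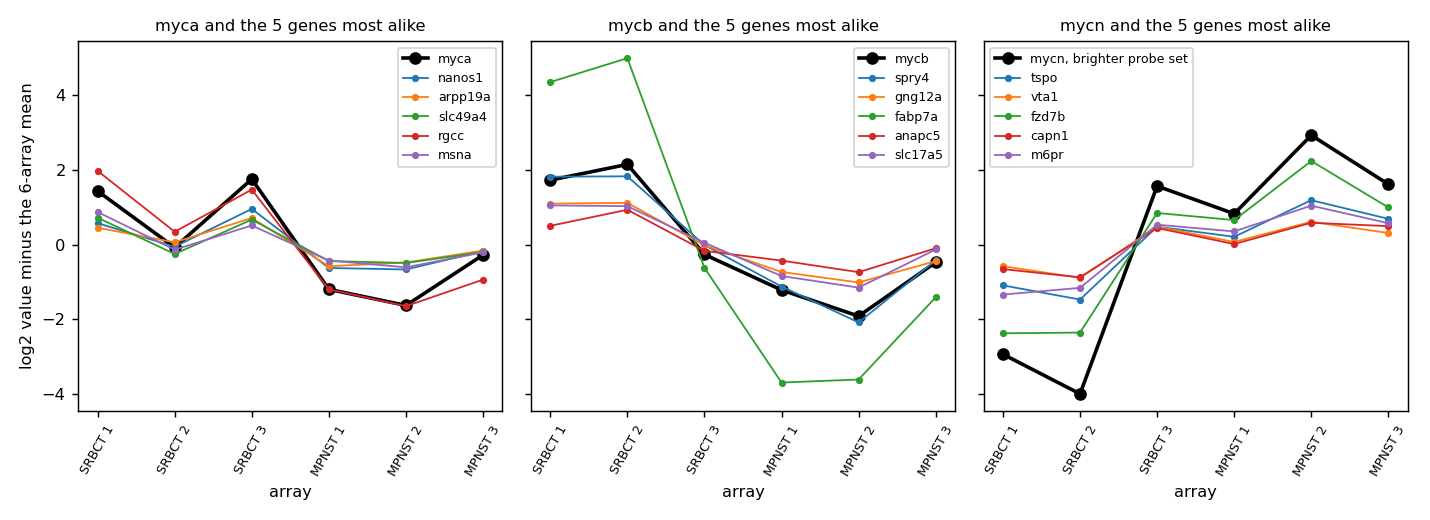
Values of myca, mycb and mycn (brighter probe set; all black) and of the 5 genes most like each (colours) on the 6 arrays, each minus its own 6-array mean (log2, vertical axis). The genes shown with mycb are lower on SRBCT 3 than on SRBCT 1 and 2, with fabp7a at 11.64 and 12.28 against 6.67, and those shown with mycn are low on SRBCT 1 and 2 and at MPNST levels on SRBCT 3.

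The other genes of the Max and Mlx network that were measured were 4 of 15 listed. The L-Myc genes mycla and myclb, further Myc paralogs, lay below every MPNST array on all SRBCT arrays, as 10.0% of all genes did. mycla was at 5.56, 6.96 and 6.45 in SRBCT and at 8.0, 7.50 and 7.09 in MPNST, a difference of -1.21 (limma adjusted p 0.287), and of -1.27 without SRBCT 3. myclb read 6.35, 5.97 and 5.65 on SRBCT 1, 2 and 3, and 8.24, 7.18 and 7.56 on MPNST 1, 2 and 3, a difference of -1.67 (adjusted p 0.112), and of -1.50 without SRBCT 3. On SRBCT 3 both were low, unlike mycn. The Max-binding repressor gene mxd4 differed by -0.40 (adjusted p 0.688) and mgaa, whose protein also binds Max, by -0.05 (adjusted p 0.925). Without SRBCT 3 these were -0.88 and 0.01. In this list 0 of 4 passed over all probe sets with limma, where 0.876% of all genes did, and 2 of 4 had an unadjusted p under 0.05, where 15.7% of all genes did.

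The lists of genes that mammalian Myc is known to raise had medians of 0.12, where all 8793 genes had a median of 0.07. These medians depended on single arrays. That of ribosome assembly ran from -0.19 without MPNST 1 to 0.30 without MPNST 3, that of metabolism from -0.07 without MPNST 1 to 0.21 without SRBCT 3, and that of cell cycle entry from -0.09 without SRBCT 2 to 0.35 without SRBCT 3, so that none has a settled sign. Of 45 nucleolar and ribosome assembly genes 28 had a difference above 0, as 55.9% of all genes did, the median was 0.12, and 0 passed with limma. At an unadjusted p under 0.05 there were 4 of 45, a smaller share than the 15.7% of all genes. These were tsr1 (1.14), utp4 (0.82) and noc2l (0.75), all of ribosome assembly, and imp3 (-0.78), of small subunit processing (adjusted p 0.280 to 0.313). Without SRBCT 3 they were 1.34, 0.86, 0.65 and -0.85. The whole list ran from -0.78 to 1.14. utp4 read 8.07, 8.48 and 8.15 on SRBCT 1, 2 and 3, and 7.03, 7.31 and 7.90 on MPNST 1, 2 and 3. Its groups did not overlap, as in 12.3% of all genes in this direction.

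In nucleotide, polyamine and one-carbon metabolism 29 genes were measured. Their median was 0.12, 0 passed with limma and 4 of 29 had an unadjusted p under 0.05, where 15.7% of all genes did. The purine synthesis gene atic was at 7.54, 8.24 and 8.97 in SRBCT and at 10.02, 10.18 and 9.58 in MPNST, a difference of -1.68 (adjusted p 0.156). Of the same pathway, adsl differed by -2.02 (adjusted p 0.263) and the guanine nucleotide enzyme gene impdh1b by -1.29 (adjusted p 0.155), and each was lower on all SRBCT arrays, as 10.0% of all genes were. ahcy, of the methionine cycle, differed by 0.73 (adjusted p 0.301). Without SRBCT 3 adsl, impdh1b and ahcy differed by -2.56, -1.43 and 0.75. Without SRBCT 3 atic (-2.04, adjusted p 0.0223) and impdh2, the paralog of impdh1b (1.42, adjusted p 0.0357), were called. In that fit 7.16% of all genes were called. With all arrays impdh2 differed by 0.81.

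Of 18 cell cycle entry genes 0 passed with limma, and 2 had an unadjusted p under 0.05, a smaller share than the 15.7% of all genes. These were ccne1 (-1.89, adjusted p 0.182), the cyclin of the start of DNA replication, and the replication licensing gene cdt1 (-1.65, adjusted p 0.329). The list's median was 0.12. cks1b, a partner of cyclin-dependent kinases, differed by 0.71 (adjusted p 0.342), and the replicative helicase gene mcm6 by 0.98 (adjusted p 0.387). Without SRBCT 3 ccne1, cdt1 and cks1b differed by -1.56, -1.14 and 0.77. mcm6 was called without SRBCT 3 (1.51, adjusted p 0.0245), as 7.16% of all genes were.

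Genes that mammalian Myc is known to lower, listed together with relatives of such genes (15 measured), had a median of -0.16. Of these, 0 passed the threshold of limma and 3 of 15 had an unadjusted p under 0.05, where 15.7% of all genes did. The median was -0.47 without MPNST 1 and 0.28 without MPNST 3, so that its sign is not settled. The N-myc downstream regulated gene ndrg3a was higher on all SRBCT arrays, with 9.14, 9.15 and 7.87 against 6.95, 6.35 and 6.21 on MPNST 1, 2 and 3, a difference of 2.22 (adjusted p 0.100). The name of its family comes from Ndrg1, a gene that N-myc lowers in mice, and ndrg3a and ndrg4 are listed as relatives of that gene. ndrg4 of the same family differed by 0.89 (adjusted p 0.163), the growth arrest gene gadd45ga by 2.06 (adjusted p 0.292) and the matrix gene thbs1b by -1.99 (adjusted p 0.332). Without SRBCT 3 ndrg4 and thbs1b differed by 1.02 and -2.04. Without SRBCT 3 ndrg3a (2.64, adjusted p 0.00791) and gadd45ga (2.77, adjusted p 0.0494) were called. In that fit 7.16% of all genes were called.

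Cofactors and regulators of the Myc protein (21 measured) had a median of 0.15, with 0 called by limma and 1 of 21 at an unadjusted p under 0.05, where 15.7% of all genes were. This was the ubiquitin ligase gene huwe1 (0.82, adjusted p 0.326). The corepressor genes sin3b and sin3ab, whose mammalian counterparts act with Mxd proteins, differed by 0.71 (adjusted p 0.377) and -0.63 (adjusted p 0.423), and the kinase gene pim2 by -0.57 (adjusted p 0.440). Without SRBCT 3 huwe1, sin3b, sin3ab and pim2 differed by 0.66, 0.96, -0.41 and -0.32. pim3, of the same kinase family, was at 8.82, 7.39 and 4.59 on SRBCT 1, 2 and 3 and between 5.26 and 5.83 in MPNST. It was called without SRBCT 3 (2.50, adjusted p 0.0373), as 7.16% of all genes were, and differed by 1.33 with all arrays.

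The Wnt and Notch pathways act upstream of myc genes in mammalian tissues, and the list of their genes also holds pathway targets such as axin2 and hey1. It had a median of 0.03 over 24 measured (-0.10 without MPNST 1 and 0.13 without SRBCT 1). In this list 0 were called by limma and 4 of 24 had an unadjusted p under 0.05, close to the 15.7% of all genes. The Notch ligand gene dla (2.40, adjusted p 0.156) and the receptor genes notch1a (2.56, adjusted p 0.219) and notch1b (0.66, adjusted p 0.243) were higher on all SRBCT arrays, as 12.3% of all genes were, and fzd7b differed by -2.59 (adjusted p 0.298). dla is also on the list of neural markers. Without SRBCT 3 dla and notch1b differed by 2.77 and 0.64. notch2 read 4.72, 5.22 and 8.79 on SRBCT 1, 2 and 3, and 8.51, 8.62 and 7.56 on MPNST 1, 2 and 3. It was low on SRBCT 1 and SRBCT 2, as mycn was, and differed by -1.99 with all arrays. Without SRBCT 3 notch1a (3.41, adjusted p 0.00588), fzd7b (-3.66, adjusted p 0.0149) and notch2 (-3.26, adjusted p 0.0110) were called. In that fit 7.16% of all genes were called.

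**Figure D5:**
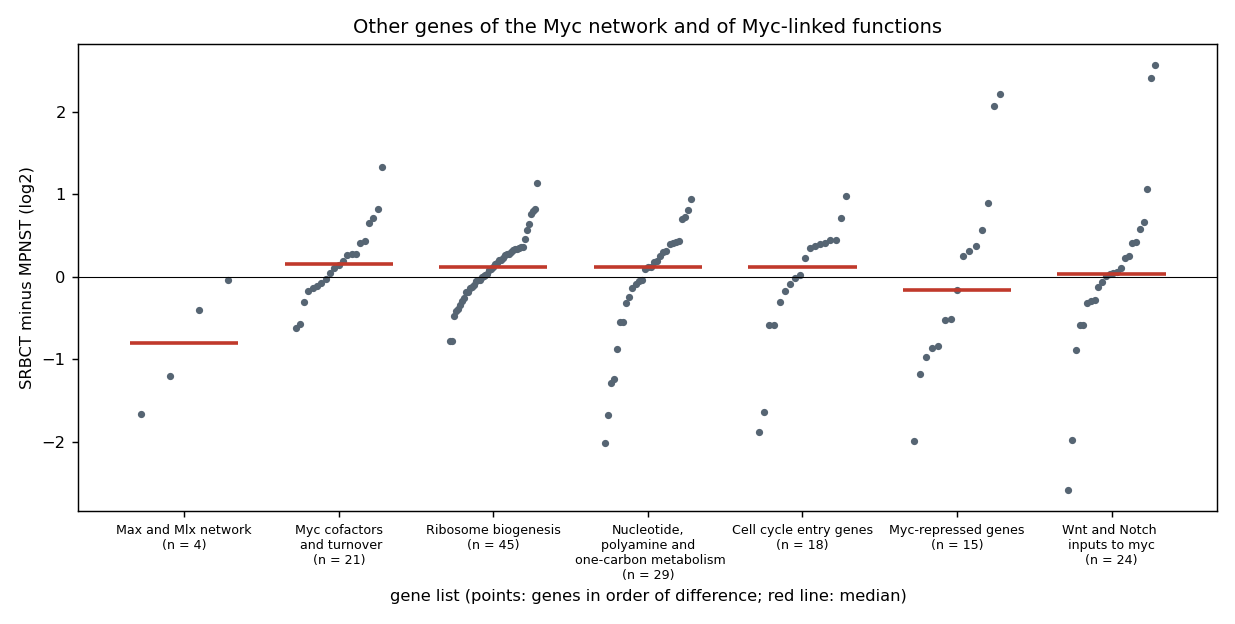
Difference SRBCT minus MPNST (log2, vertical axis) of each measured gene (points, in order of difference) of 7 lists of Myc network, Myc-linked and Wnt and Notch pathway genes (horizontal axis); red lines are list medians. The medians lie between -0.16 and 0.15 except for the 4 genes of the Max and Mlx network, at -0.80.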

How the data were processed

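Total RNA (2.5 micrograms per tumour) was amplified from an oligo(dT) primer and hybridized to zebrafish Affymetrix arrays, per the labels' protocols. The authors deposited log2 expression values per probe set for each array. RMA, affy and R 2.2.0 are named in the submitters' processing notes. The base of the log was taken from RMA and the range of 1.86 to 13.88. RMA narrows differences between dim probe sets. Scanner files were not used here.

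Of 15617 probe sets 115 controls were left out. Names came from the platform annotation of 2016, updated by Entrez identifier, and a gene was read by its probe set with the highest mean. All probe sets were fitted with limma 3.58.1 in R 4.3.3 (lmFit, eBayes), 3 against 3 arrays without covariates, and called at a Benjamini-Hochberg adjusted p under 0.05. The method was tested on simulated data. Named genes are the members, up to 4 genes of smallest p per pathway list, those called in these lists, and the 5 most alike (SD of at least 0.5). Genes of the tissue marker lists were picked as examples and do not stand for their lists. Members, lists and tests were chosen with earlier results of these data known. The titles call replicates biological. Same-numbered arrays come from different fish, and their deviations correlated at 0.06, 0.07 and -0.05, so numbers do not pair them. Sequences and positions of the genes are not reported here.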

Additional observations from a re-analysis of the deposited data

How the results depend on the processing

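Of the 8 probe sets' differences, 7 moved by less than the spread between replicates in every alternative run. This spread is the SD within groups, pooled over both, and for mycn SRBCT 3 itself widens it. A run without 1 array of a group of 3 cannot move by that much, whatever the values. The replicate block leaves the difference as it was, as does leaving out dim probe sets where the probe set was kept. Staying within the spread was thus fixed in advance for those runs and shows nothing. The difference of mych changed sign in 3 of 14 alternative runs, so staying within the spread does not show a stable difference. For mxi1 the hybridization control covariate, added after seeing the data, gave -0.018, and leaving out dim probe sets gave no value. The range was 1.43 to 2.63 for myca, 1.93 to 3.14 for mycb, -5.71 to -2.88 and -5.74 to -2.47 for mycn, and -0.89 to 0.0033 and -1.08 to -0.14 for max, the upper ends both without MPNST 2. Of the 8 probe sets 3 were called without SRBCT 3, where 7.35% of all probe sets were, and 2 without SRBCT 3 and MPNST 1 (also added later). Over fits without 1 array that count was 0 to 3. Over all probe sets 140 were called, and 278 with array weights, 88 with the replicate block, 19 with the hybridization control covariate, 786 without SRBCT 3 and MPNST 1, and 26 to 1140 without 1 array (26 without SRBCT 1, 38 without MPNST 2, 57 without MPNST 3, 1140 without SRBCT 3). The replicate block changed no count of called members or list genes.

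Counts of list genes called moved from 0 in these cases. Without 1 array they were 0 to 1 of 21 for cofactors, 0 to 2 of 29 for metabolism and 0 to 1 of 18 for cell cycle entry. They were 0 to 2 of 15 for Myc-repressed genes and 0 to 3 of 24 for Wnt and Notch genes. The highest counts were all without SRBCT 3, where 7.16% of all genes were called. Without SRBCT 3 and MPNST 1, 2 of 15 Myc-repressed and 4 of 24 Wnt and Notch genes were called, beside 786 of 15502 probe sets. With array weights 1 Myc-repressed gene was called, beside 278 of 15502 probe sets. Without dim probe sets 1 was also called, beside 204 of the probe sets kept. The median moved to -1.21 for the Max and Mlx network and -0.22 for Wnt and Notch genes without dim probe sets, to -0.18 for the latter without SRBCT 3 and MPNST 1, and to -0.048 for metabolism with array weights. Without 1 array it ranged from -0.067 to 0.207 for metabolism, from -0.188 to 0.303 for ribosome assembly, from -0.093 to 0.349 for cell cycle entry, from -0.097 to 0.13 for Wnt and Notch genes and from -0.47 to 0.28 for Myc-repressed genes. For ribosome assembly it was -0.055 with array weights and -0.085 without SRBCT 3 and MPNST 1, and for cell cycle entry 0.459 with the hybridization control covariate and 0.002 without dim probe sets. The cause of these changes was not tested.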
